A study of Mus musculus with 9 samples.

Results

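The depolarisation of cultured cortical neurons with KCl was compared with the blockade of their GABA-A receptors with bicuculline. The 6 arrays titled KCl replicates 1 to 3 and bicuculline replicates 1 to 3 were taken from a series of 9, whose remaining 3 arrays are untreated controls, and all genes on the array were examined. The cells were cortical neurons of C57BL/6 mouse embryos at embryonic day 15, kept for 12 days in culture. They were exposed for 6 h to 50 mM KCl or to 25 µM bicuculline, and control cultures received neither. RNA was labelled with cyanine 3 and hybridised to a 1-colour Agilent whole mouse genome array. The labels do not state that same-group arrays came from different cultures, so p-values cover only array-to-array spread, in which a technical part cannot be told apart.

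Both stimuli raise calcium in neurons, by different routes. Raised extracellular potassium holds the membrane depolarised and opens voltage-gated calcium channels in every excitable cell of the dish. Bicuculline removes fast inhibition, so that the network fires bursts of action potentials and calcium enters through synaptic NMDA receptors as well as through voltage-gated channels. In both cases calcium-dependent kinases act on factors such as CREB, SRF and MEF2, and a wave of immediate early transcription factors is followed by effector genes that act at synapses and in secretion.

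Signals are given as log2 of the processed signal minus the 75th percentile of its array, so that 0 is the 75th percentile. The 75th percentile was 1586 to 1679 signal units under KCl, 1805 to 2049 under bicuculline and 1804 to 3087 in control. Between 64.96% and 75.9% of non-control spots were well above background, 0 spots were saturated, and the median SD between replicates was 0.064 over 14062 genes. On the principal component with the most variance (65.3%), control arrays lay between -43.26 and -28.75, bicuculline arrays between -8.12 and 2.62 and KCl arrays between 36.69 and 42.92. Slide 1 held control 1 and 2 with bicuculline 1 and 2, slide 2 held KCl 1 and 2 with control 3 and bicuculline 3, and slide 3 held KCl 3 alone. KCl can therefore be set against bicuculline within a slide only on slide 2, with 2 KCl arrays and 1 bicuculline array.

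The first comparison asked which transcripts differed between the stimuli. Of the 14062 genes tested, 5076 (36.1%) were higher under KCl and 4047 (28.8%) were lower, at an adjusted p under 0.05 in limma with Benjamini-Hochberg adjustment. The differences were mostly small, with a median absolute log2 difference of 0.34 among called genes. At least 2-fold differences were called for 313 genes (2.23%) higher and 175 genes (1.24%) lower, and at least 4-fold differences for 26 and 3. Where all 6 arrays had to be well above background, the 2-fold counts were 226 and 137 of 13505 genes. Of the 143 genes named here, 125 passed that filter. The 3 KCl arrays lay all above the 3 bicuculline arrays for 5564 genes and all below them for 4282, and they overlapped for 4216.

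The split between higher and lower depended on how arrays were brought to 1 scale. The median of all genes was 0.07 with the 75th percentile, -0.02 with quantile normalization, -0.05 with median scaling and -0.34 with spike-in scaling, a shift of -0.42 for the last. Relative to the 75th percentile, the log2 spike-in level was -0.39, 0.02 and -0.26 on KCl arrays 1 to 3. It was -0.70, -0.63 and -0.55 on bicuculline arrays 1 to 3. The KCl arrays thus differed among themselves by about the size of that shift. The counts higher and lower were 3680 and 4883 with quantile normalization, 2501 and 4866 with median scaling and 654 and 6871 with spike-in scaling. With normexp background correction and the 75th percentile, called normexp here, they were 1099 and 1340. With normexp and quantile normalization they were 3444 and 4482, and 140 of the 143 genes named here kept their call or lack of one. Among the 143 genes named here, 15 turned sign with normexp and 44 lost their call with the same sign, namely 1700123K08Rik, Acta2, Airn, Bdnf, Cartpt, Casq2, Chrm3, Dus4l, Dusp2, Edn1, Efcab5, Egr2, Fgfbp1, Fosl2, Gad1, Gfap, Gpr6, Grik3, Grin2d, Grm8, H2al1n, H2al1o, Hpca, Ier2, Il11, Jag1, Kcns2, Lce1f, Mcm2, Oasl2, Plekhh1, Prox1, Ptger4, Ptgs2, Pth, Pus7l, Smad9, Sox5, Srf, Syt9, Tubb3, Unc5d, Wnt5a and Zfp759. With spike-in scaling 18 lost their call with the same sign, namely Adat2, Cacnb1, Dnajb9, Gfap, Grin2d, Hpca, Hspb1, Kcna1, Kcnd3, Kcns2, Mbp, Neurod2, Nts, Ppp1r15a, Smad6, Srf, Tac1 and Unc5d. The direction of differences above 0 but under about this shift is thus specific to the scaling. Of the 899 genes with a mean log2 signal above 4, 616 were higher and 20 lower under KCl, against 126 and 153 with quantile normalization. Of the 1630 dimmest genes, with a mean up to -4, 427 were higher and 209 lower (median 0.39). With quantile normalization 266 of these were higher and 334 lower (median 0.13). For the lists below, the median and the counts with spike-in scaling follow the reported ones, and the quantile median where its sign differs. They are to be read beside all 14062 genes. Of these, 36.1% were higher and 28.8% lower as reported, and 654 were higher and 6871 lower with spike-in scaling. With normexp at most 12 members of a list were higher and at most 4 lower.

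With slide as a block, in which KCl 3 carries no information on the difference, 3855 genes were higher and 3439 lower. Of these, 7066 had the call of the fit without the block, and 0 were called the other way. Of the 488 genes called at 2-fold or more, 435 kept their call under the block. Bicuculline 3 bore on the 2-fold count, since without it 498 genes were at least 2-fold higher and 174 lower.

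**Figure D1:**
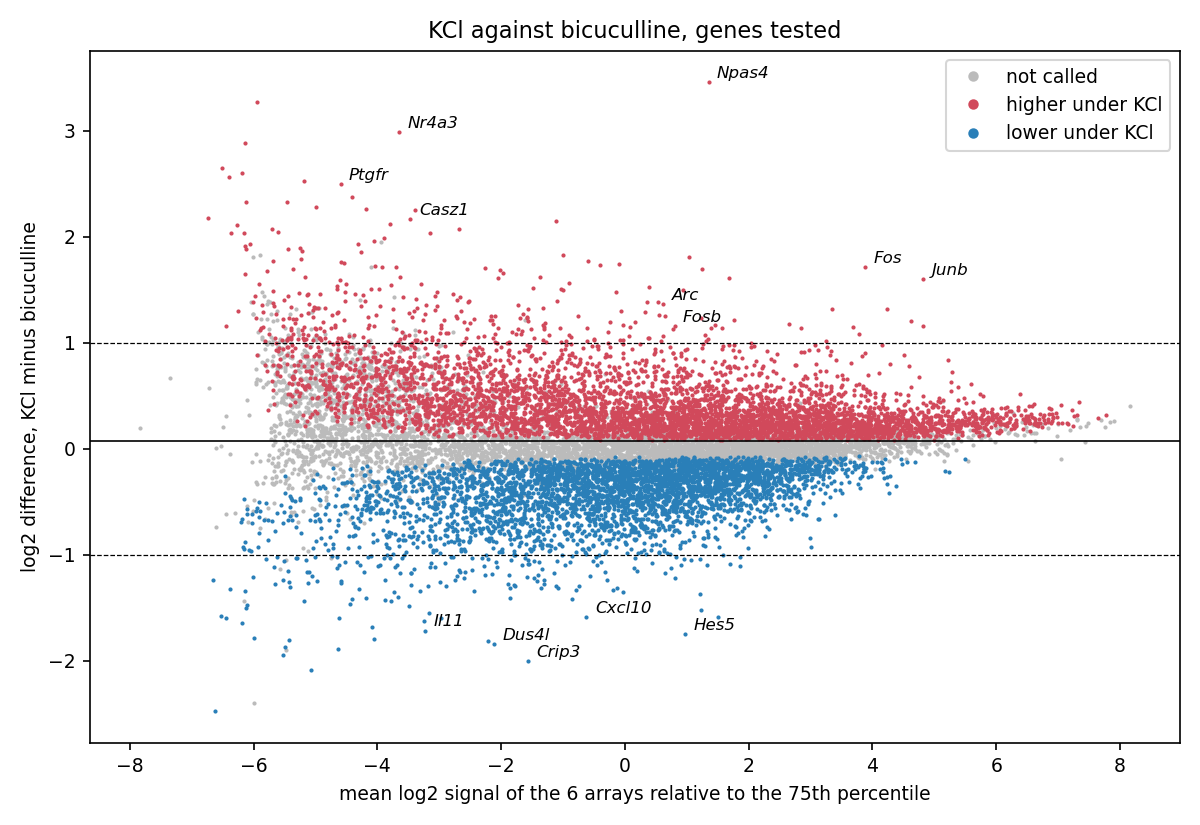
Log2 difference between KCl and bicuculline (y axis) against the mean log2 signal of the 6 arrays relative to the 75th percentile (x axis), 1 point a gene, with called genes in red (5076 higher) and blue (4047 lower) and the rest in grey. Dashed lines mark 2-fold, the solid line marks the median of 0.07, and Npas4 at 3.46 stands above every other gene; with spike-in scaling the median lies at -0.34.

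**Figure D2:**
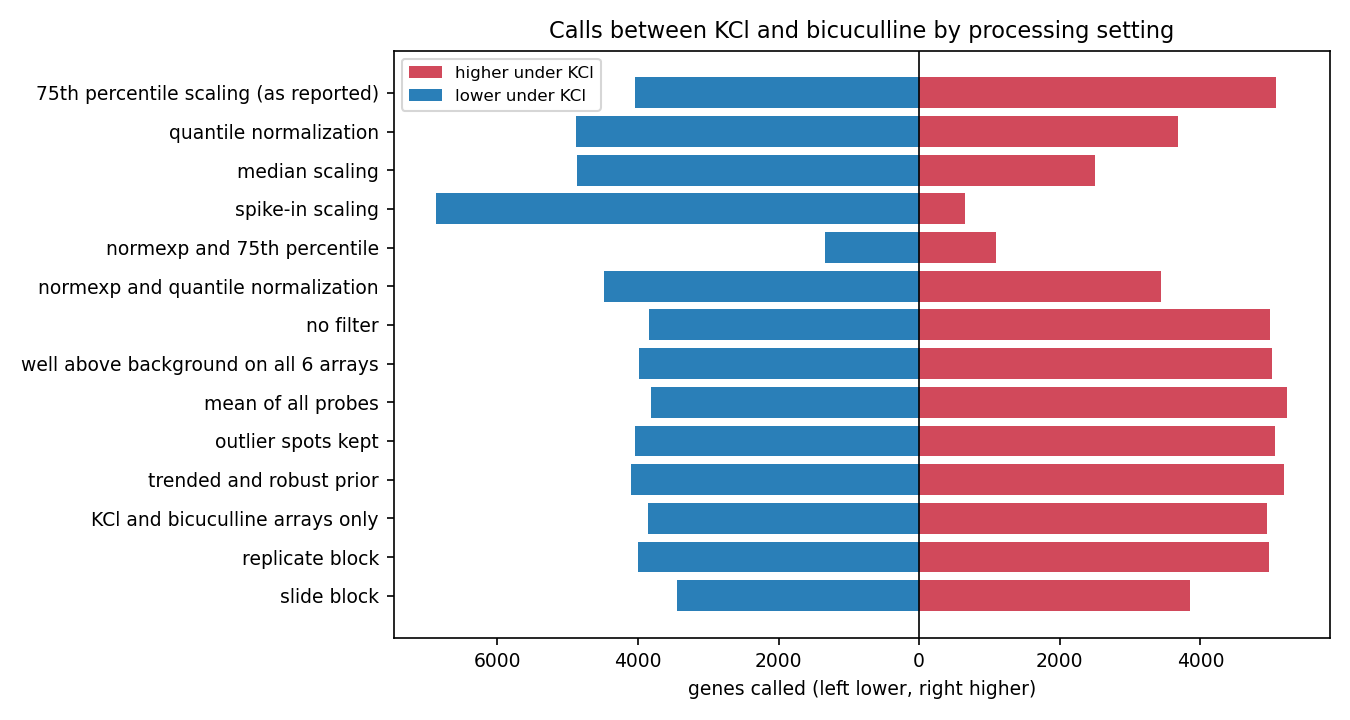
Number of genes called lower (left, blue) and higher (right, red) under KCl than under bicuculline in each processing setting, 1 bar pair a setting. The 5076 and 4047 of the 75th percentile become 654 and 6871 with spike-in scaling, and 3855 and 3439 with slide as a block.

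The immediate early transcription factors showed the widest gap. Npas4, a neuronal transcription factor induced by calcium influx that controls inhibitory synapse genes, was the gene with the largest difference. It stood at -0.52, -0.25 and -0.35 on bicuculline arrays 1 to 3 and at 3.17, 3.01 and 3.06 on KCl arrays 1 to 3, while control arrays read -1.15, -1.33 and -1.24. The 3 groups did not overlap, and the bicuculline arrays lay closer to control than to KCl. Npas4 was 10.98-fold higher under KCl (log2 3.46 ± 0.08 SE, n = 3 arrays a group, adjusted p = 3.4e-07 in limma), and the difference within slide 2 was 3.44. Against control its log2 change was 4.32 under KCl and 0.86 under bicuculline.

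Fos, the founding AP-1 subunit, read 0.22, 0.26 and 0.31 in control, 2.99, 3.01 and 3.06 under bicuculline and 4.70, 4.74 and 4.76 under KCl. Both stimulated groups lay well above control and did not overlap, and Fos was 3.27-fold higher under KCl (1.71 ± 0.04, adjusted p = 3.1e-07). Its relative Fosb, at 0.16, 0.25 and 0.27 under bicuculline and 1.30, 1.44 and 1.41 under KCl, differed by 1.15 ± 0.10 (adjusted p = 3.4e-05). Junb, their AP-1 partner, read 3.99, 4.03 and 4.03 under bicuculline and 5.60, 5.60 and 5.65 under KCl, a difference of 1.60 ± 0.03 (adjusted p = 3.1e-07). Jun itself went the other way, with 1.78, 1.85 and 1.83 under bicuculline and 1.39, 1.49 and 1.42 under KCl (-0.39 ± 0.04, adjusted p = 5.7e-05). The AP-1 subunits thus did not all differ in 1 direction.

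The 3 members of the Nr4a family of orphan nuclear receptors were all higher under KCl. Nr4a1 read 4.08, 3.93 and 4.02 under bicuculline and 5.23, 5.13 and 5.29 under KCl (1.21 ± 0.05, adjusted p = 1.2e-06). Nr4a3, not well above background on any control array, read -5.31, -5.13 and -4.98 under bicuculline and -2.07, -2.19 and -2.19 under KCl (2.99 ± 0.26, adjusted p = 3.4e-05). Nr4a2 differed by 1.15.

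Egr1, a zinc finger factor of the same early wave, did not separate the stimuli. It read 2.73, 2.71 and 2.73 in control, 2.15, 2.11 and 2.15 under bicuculline and 2.04, 2.15 and 2.10 under KCl. The stimulated arrays overlapped and all lay below control, and the difference was -0.04 with a 95% interval from -0.12 to 0.03 (adjusted p = 0.29 in limma). With median scaling (-0.17) and spike-in scaling (-0.46) Egr1 was called lower under KCl. Egr4 did separate them, at 1.80, 1.77 and 1.95 under bicuculline and 2.67, 2.86 and 2.76 under KCl (0.92 ± 0.06, adjusted p = 1.1e-05).

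Of 24 immediate early transcription factors tested, 17 were higher under KCl, 4 were lower and 3 were not called, beside 36.1% and 28.8% of all genes. Their median difference was 0.85 (0.44 with spike-in scaling, under which 13 were higher and 6 lower), and 11 were at least 2-fold higher. Against control the list's median was 1.60 under KCl and 0.78 under bicuculline. Atf3 (1.61), the Krüppel-like factor Klf4 (1.499) and the cAMP response modulator Crem (1.22) were among those higher. Jun, Klf10 (-0.75), Ier2 (-0.30) and Fosl2 (-0.18) were the 4 lower, although the mean over all Fosl2 probes was 0.55. Egr1, Klf6 and Myc were not called. Klf6 was called lower with quantile normalization (-0.14), also after normexp (-0.13), and with spike-in scaling (-0.46), and Myc was called higher by the mean of its probes (0.25).

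**Figure D3:**
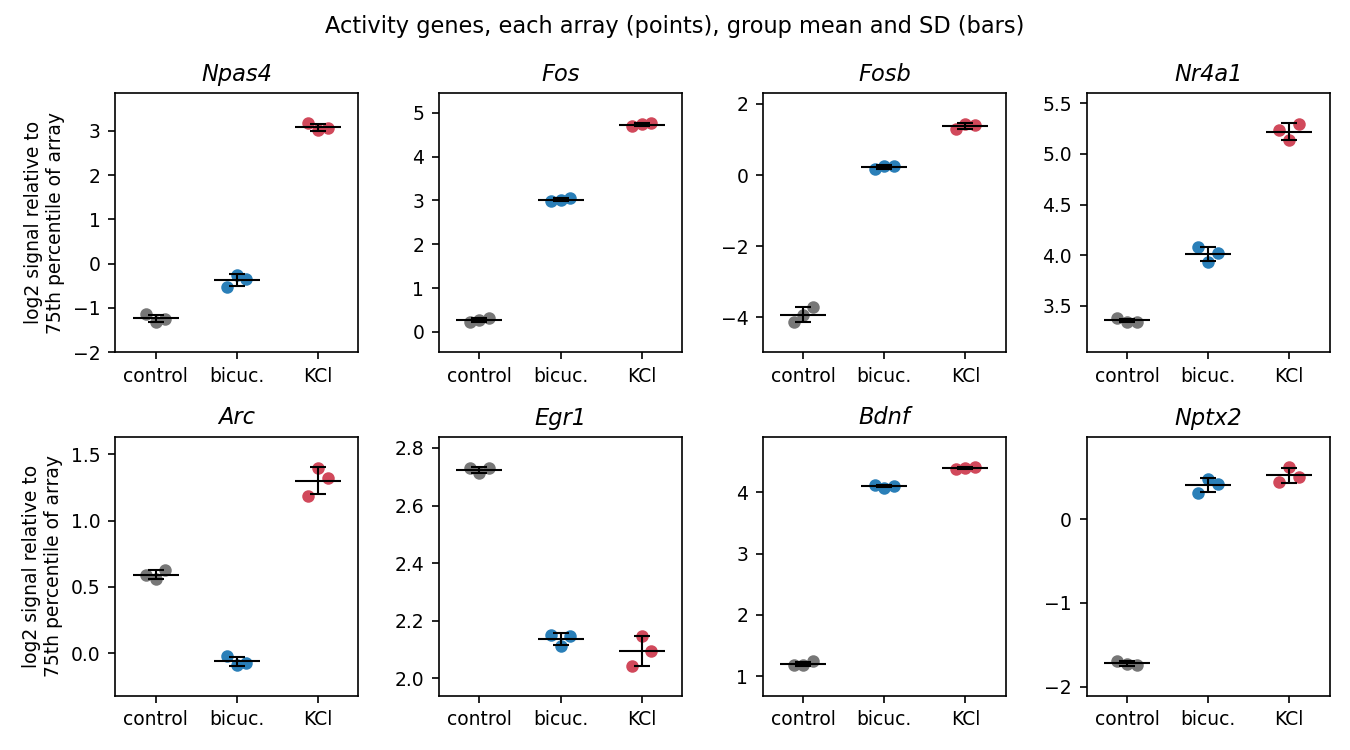
Log2 signal relative to the array's 75th percentile (y axis) of 8 activity genes on each array (points, 3 a group), with the group mean and SD (bars); y axes differ between panels. Npas4, Fos, Fosb and Nr4a1 rise from control over bicuculline to KCl, Arc lies below control under bicuculline and above it under KCl, and the stimulated arrays overlap for Egr1 and Nptx2.

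The promoters of genes at the ends of this pattern are shown to let their sequence be set beside their response. Each is the 250 bases before the start site from RefSeq, build GRCm38.p6, 5′ to 3′ on the gene's strand, with capitals for the core site TGACG or CGTCA bound by CREB-type factors, its full site TGACGTCA, or the AP-1 site TGANTCA (N is any base). Npas4 (chr19:4989972-4990221, minus strand) and Fos (chr12:85473640-85473889, plus strand), both higher under KCl, hold 2 core sites each. Pcsk1 (chr13:75089607-75089856, plus strand), which encodes a prohormone convertase and was higher under KCl, holds 1 full site 78 bases before the start and a further core site 50 bases before it. Rem2 (chr14:54475850-54476099, plus strand), a small GTPase that restrains calcium channels, moved in opposite directions and shows none of these letters in the window. Il11 (chr7:4778142-4778391, minus strand), a cytokine lower under KCl, holds 1 AP-1 site 98 bases before the start, and the window of its other listed start holds none.
Npas4: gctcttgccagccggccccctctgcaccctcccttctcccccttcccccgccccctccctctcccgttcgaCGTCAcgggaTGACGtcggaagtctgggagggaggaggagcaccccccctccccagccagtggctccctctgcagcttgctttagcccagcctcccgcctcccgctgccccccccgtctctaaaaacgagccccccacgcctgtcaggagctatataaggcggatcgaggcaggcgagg
Fos: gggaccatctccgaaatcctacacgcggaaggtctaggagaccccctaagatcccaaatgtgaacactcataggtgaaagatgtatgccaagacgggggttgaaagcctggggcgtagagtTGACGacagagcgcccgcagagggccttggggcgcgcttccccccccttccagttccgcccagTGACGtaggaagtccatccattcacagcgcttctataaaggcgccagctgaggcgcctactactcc
Pcsk1: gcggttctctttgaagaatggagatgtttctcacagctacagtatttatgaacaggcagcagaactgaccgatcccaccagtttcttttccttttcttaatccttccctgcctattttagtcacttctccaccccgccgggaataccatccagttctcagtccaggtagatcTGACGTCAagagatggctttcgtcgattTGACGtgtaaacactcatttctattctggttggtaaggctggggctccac
Rem2: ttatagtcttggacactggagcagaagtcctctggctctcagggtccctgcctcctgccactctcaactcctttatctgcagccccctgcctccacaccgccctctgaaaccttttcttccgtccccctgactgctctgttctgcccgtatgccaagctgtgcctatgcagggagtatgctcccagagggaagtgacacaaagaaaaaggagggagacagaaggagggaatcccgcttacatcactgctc
Il11: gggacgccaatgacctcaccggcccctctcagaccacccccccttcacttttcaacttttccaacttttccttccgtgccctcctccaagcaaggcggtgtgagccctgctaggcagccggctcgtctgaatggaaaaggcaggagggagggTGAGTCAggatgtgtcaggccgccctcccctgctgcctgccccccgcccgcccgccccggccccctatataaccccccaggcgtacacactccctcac

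Promoters, in windows from 250 bases before to 50 after the start and read on both strands, were listed for 11213 of the 14062 tested genes, some with several starts, and a gene is counted once if any of its windows holds a site. Of these genes 33.7% held the CREB core site and 3.46% the full site, which contains the core site. Of the 18 immediate early factors with a promoter, 14 (77.8%) held the core site and 2 (11.1%), Egr2 and Srf, a CArG box, the SRF site, against 1.67% of all genes. Of the 230 genes at least 2-fold higher under KCl with a promoter, 30.0% held the core site, 3.91% the full site, 8.26% the AP-1 site (6.45% of all) and 5.22% a CArG box. The last share, 12 genes, includes H2al1m, H2al1n and H2al1o, near-identical copies of a histone gene. Of the 149 genes at least 2-fold lower, 24.8% held the core site and 1 gene (0.671%) the full site. These shares are descriptions of letters in a window and were not tested.

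Among activity-induced effectors, the genes by which the early wave reaches synapses and secretion, 18 of 28 were higher under KCl, 4 were lower and 6 were not called. The median was 0.33, and -0.08 with spike-in scaling, under which 6 were higher and 8 lower. Arc, which drives the removal of AMPA receptors from synapses, read 0.59, 0.56 and 0.63 in control, -0.02, -0.09 and -0.07 under bicuculline and 1.19, 1.39 and 1.32 under KCl. The 3 groups did not overlap, with control between the stimuli, and Arc was 2.57-fold higher under KCl (1.36 ± 0.05, adjusted p = 9.3e-07). Rem2 followed the same order at -1.20, -1.19 and -1.15 under bicuculline and 0.06, -0.02 and -0.17 under KCl, against -0.33, -0.31 and -0.31 in control (1.14 ± 0.06, adjusted p = 2.0e-06).

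Other effectors were induced by both stimuli to unlike degrees. Pcsk1 read -0.71, -0.66 and -0.66 in control, 2.27, 2.33 and 2.21 under bicuculline and 3.39, 3.33 and 3.51 under KCl (1.14 ± 0.05, adjusted p = 1.5e-06). Bdnf, the neurotrophin that supports synapse growth, was close between the stimuli, at 4.12, 4.08 and 4.11 under bicuculline and 4.37, 4.39 and 4.41 under KCl. Its arrays did not overlap (0.29 ± 0.03, adjusted p = 8.2e-05), but the difference was -0.13 with spike-in scaling. Ptgs2, which makes prostaglandin precursors, was higher under bicuculline, at -0.97, -0.94 and -0.94 against -1.67, -1.49 and -1.59 under KCl (-0.63 ± 0.05, adjusted p = 2.1e-05).

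Nptx2, a secreted organiser of AMPA receptors, did not separate the stimuli (0.12, 95% interval -0.01 to 0.25, adjusted p = 0.10 in limma), and its sign turned with median scaling (-0.0053) and spike-in scaling (-0.30). Homer1, a postsynaptic scaffold with long and short transcripts, read 1.52, 1.49 and 1.43 under bicuculline and 1.18, 1.09 and 1.00 under KCl by its brightest probe (-0.39 ± 0.05, adjusted p = 0.00036). Its 2 other probes gave differences of 0.28 and 0.42, so its direction depended on the probe. Gad1, the GABA-synthesising enzyme, differed by 0.12 ± 0.03 (adjusted p = 0.017) and was not called with slide as a block (0.10, adjusted p = 0.12) or without KCl 1 (0.10), KCl 3 (0.10) or bicuculline 2 (0.10). Its sign turned with quantile normalization (-0.06), median scaling (-0.01) and spike-in scaling (-0.30).

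Feedback phosphatases, kinases and signalling inhibitors, which end the calcium and MAP kinase signal, were higher under KCl in 16 cases, lower in 5 and not called in 7 of 28, with a median of 0.29 (-0.12 with spike-in scaling, 3 higher and 11 lower). The MAP kinase phosphatases split, with Dusp4 higher (1.25 ± 0.06, adjusted p = 2.2e-06) and Dusp2 lower (-1.22 ± 0.08, adjusted p = 9.7e-06). The EGF receptor inhibitor Errfi1 was 1.00 higher. Rcan1, an inhibitor of calcineurin, was lower by -0.28 and its arrays lay below control under KCl and above it under bicuculline.

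Neuropeptides and neurotrophic factors were higher in 13 cases, lower in 4 and not called in 4 of 21, with a median of 0.21 (-0.20 with spike-in scaling, 1 higher and 5 lower). Neurotrophin-3, Ntf3, was 1.09 ± 0.13 higher (adjusted p = 0.00020), neurotensin, Nts, 0.71 and the tachykinin precursor Tac1 0.54. Cartpt, a peptide precursor strongly induced by both stimuli, differed little, at 1.85, 1.79 and 1.81 under bicuculline and 2.08, 2.23 and 2.10 under KCl (0.32 ± 0.05, adjusted p = 0.00083; -0.10 with spike-in scaling).

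Secreted EGF-like ligands and cytokines went both ways, with 5 higher, 4 lower and 5 not called of 14 and a median of 0.16 (-0.25 with spike-in scaling, 1 higher and 6 lower). Il11, a cytokine of the interleukin-6 family, read -5.00, -4.95 and -4.54 in control, -2.48, -2.29 and -2.34 under bicuculline and -4.10, -4.14 and -4.02 under KCl. The KCl arrays lay between the other groups with no overlap, and Il11 was 3.28-fold higher under bicuculline (-1.72 ± 0.12, adjusted p = 9.6e-06; -0.35 with normexp, not called). Nrg1, the ligand of ErbB receptors, was higher under KCl (1.18 ± 0.03, adjusted p = 3.8e-07), and the cytokine Tslp was lower (-1.003 ± 0.17, adjusted p = 0.0011; 0.34 with normexp, not called).

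Cornified envelope genes, which build the outer skin layer and cluster in 1 genomic locus, were higher in 4 cases, lower in 6 and not called in 2 of 12. Their median was 0.02, and negative with quantile normalization (-0.10), median scaling (-0.11) and spike-in scaling (-0.40, 0 higher and 6 lower). The 4 higher became 1 without bicuculline 3 or KCl 2, 2 without control 2, bicuculline 1, bicuculline 2 or KCl 1, and 2 with slide as a block. Lce1f, not well above background on any control array, read -0.96, -1.36 and -1.15 under bicuculline and -2.60, -2.58 and -2.52 under KCl (-1.41 ± 0.19, adjusted p = 0.00034). Lce1h was also lower under KCl (-1.27), but its difference was 0.51 with normexp. The genes of the family are similar in sequence, so their probes may share signal.

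Beyond the activity genes, the 12 genes with the largest difference in each direction, among those well above background in both groups and with arrays that did not overlap, had varied roles. Those higher under KCl were Npas4 and Nr4a3 with Ptgfr (2.496), a prostaglandin receptor, Mpzl3 (2.38), Ifi202b (2.26), Socs7 (2.25), an adaptor that restrains cytokine signals, Casz1 (2.16), a zinc finger transcription factor, C2cd4b (2.15), Dennd2c (2.12), the connexin Gja6 (2.07), Glt28d2 (2.03) and the histone gene H2al1m (1.99). Ptgfr read -5.67, -5.90 and -5.95 under bicuculline and -3.02, -3.64 and -3.37 under KCl. Casz1 read -4.89, -4.96 and -4.55 in control, -4.60, -4.65 and -4.39 under bicuculline and -2.40, -2.30 and -2.44 under KCl. Bicuculline 1 and 2 lay within the range of its control arrays and bicuculline 3 above it. The log2 standard errors of these 12 lay between 0.06 and 0.35.

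The 12 most lowered under KCl included enzymes that modify transfer RNA, Dus4l (-1.84) and Pus7l (-1.81), and the RNA polymerase III subunit Polr3e (-1.59). Dus4l read -1.28, -1.23 and -1.28 in control, -1.27, -1.10 and -1.20 under bicuculline and -3.17, -2.90 and -3.03 under KCl. The bicuculline arrays thus read as high as control, and the KCl arrays stood apart (adjusted p = 9.3e-07), but with normexp the difference was -0.86 and not called. Hes5, a Notch-driven repressor of neuronal differentiation, fell in steps from 2.57, 2.73 and 2.55 in control to 1.86, 1.91 and 1.78 under bicuculline and 0.02, 0.13 and 0.14 under KCl (-1.75 ± 0.06 between the stimuli, adjusted p = 6.4e-07).

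The LIM-domain gene Crip3 (-2.003), Plekhh1 (-1.62), the threonine aldolase gene Tha1 (-1.60, but 0.29 with normexp) and 1700123K08Rik (-1.80) were further genes lower under KCl, with Il11 above. A pair of interferon-inducible genes was also among the 12. The chemokine gene Cxcl10 read -0.04, 0.35 and 0.20 under bicuculline and -1.90, -0.99 and -1.35 under KCl, with control at -0.11 to 0.19 (-1.59 ± 0.22, adjusted p = 0.00038). Oasl2 read -1.67, -2.73 and -2.11 under bicuculline and -3.97, -3.49 and -3.86 under KCl (-1.60 ± 0.27, adjusted p = 0.0012).

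Some genes were well above background under 1 stimulus alone. Their fold is a bound against the dim value or, where higher, the lowest signal marked well above background. Smad9, a BMP signal transducer, was at least 3.98-fold higher under KCl, with group means of -4.30 under KCl and -7.57 under bicuculline. It passed the detection filter through the KCl arrays alone. These varied widely at -2.52, -5.04 and -5.35, so that KCl 1 raises the bound. Ptger4, a prostaglandin E receptor, was at least 3.12-fold, Pth, the parathyroid hormone gene, at least 2.75-fold and Airn, a long non-coding RNA, at least 2.36-fold higher. In the other direction 1700001J03Rik was at least 3.58-fold, Sox13, an SRY-related factor, at least 2.48-fold, Sprr2h, a cornified envelope relative, at least 2.34-fold and Cpb1, a carboxypeptidase gene, at least 2.24-fold lower under KCl. The measured group means of these 4 under bicuculline and KCl were -4.03 and -6.12 for 1700001J03Rik, -4.56 and -6.43 for Sox13, -4.55 and -6.50 for Sprr2h and -4.56 and -5.72 for Cpb1. For Cpb1 the bound of 2.24-fold is the measured fold itself. With normexp the differences of these 4 genes lower under KCl turned positive, and none was called. The group means of the other 3 higher genes were -7.58 and -4.70 for Ptger4, -7.49 and -4.89 for Pth and -7.67 and -5.11 for Airn. Like Smad9, these 3 passed the detection filter through the KCl arrays alone. Sprr2h and Cpb1 passed it through the bicuculline arrays alone. Such genes were tested only because they were bright in that group.

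The second comparison asked which genes the stimuli moved in opposite directions from control; both comparisons share the 3 control arrays. There were 631, of which 358 (2.55%) were higher under KCl and lower under bicuculline than control and 273 (1.94%) the reverse. The changes were mostly small: both exceeded 0.2 on the log2 scale for 268 of the 631. The count rested on the scaling, with 609 under quantile normalization, 259 under median scaling, 43 under spike-in scaling (5 and 38) and 13 with normexp, which kept 517, 213, 30 and 13 of the 631. With normexp and quantile normalization it was 388, and 341 of the 631 were kept. Without control 3 it was 410.

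Avpr1a, the vasopressin V1a receptor, read -2.39, -2.40 and -2.39 in control, -3.08, -3.06 and -3.20 under bicuculline and -1.29, -1.48 and -1.45 under KCl. Angptl4, an inhibitor of lipoprotein lipase, read -2.67, -2.62 and -2.57 in control, -3.45, -3.34 and -3.34 under bicuculline and -1.92, -1.93 and -1.98 under KCl. In both, control lay between the stimuli with no overlap. The changes from control under KCl and under bicuculline were 0.98 and -0.72 for Avpr1a, 0.68 and -0.76 for Angptl4 and 0.71 and -0.65 for Arc. They were 0.65 and -0.73 for Lurap1, 0.82 and -0.65 for the oestrogen-binding receptor Gper1 and 0.59 and -0.65 for Fgfbp1, which carries fibroblast growth factors.

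Edn1, encoding endothelin-1, changed by 1.20 and -0.57, and Casq2, encoding a calcium-binding protein of the reticulum, by 0.64 and -0.71, but each was well above background on 1 bicuculline array only. Edn1 was also well above background on 1 control array only, and it lost its opposite call with a trended and robust prior in limma. Arc, Angptl4, Casq2, Fgfbp1 and Lurap1 were no longer called in opposite directions with spike-in scaling, and the other 11 of the 16 genes named here were. With normexp 4 of the 16 were, namely Arc, Lurap1, Nabp1 and Slc2a13. With normexp and quantile normalization 15 of the 16 were, all but Casq2. Fbxo15 lost its call without control 3, Gper1 without control 2, control 3, bicuculline 1 or bicuculline 2, and Oasl2 without any 1 array other than bicuculline 2. With slide as a block 490 genes moved in opposite directions, 424 of them among the 631, and Casq2 and Oasl2 lost that call. Oasl2 also lost it with the replicate number as a block.

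In the reverse direction Nabp1, a single-stranded DNA-binding protein gene, read -0.40, -0.37 and -0.33 in control, 0.34, 0.29 and 0.39 under bicuculline and -0.96, -0.89 and -0.86 under KCl. Opn3, an opsin gene, read -0.04, -0.01 and 0.03 in control, 0.42, 0.51 and 0.50 under bicuculline and -0.89, -0.80 and -0.86 under KCl. Here too control lay between the stimuli on every array. The changes under KCl and bicuculline were -0.81 and 0.79 for Oasl2, -1.003 and 0.62 for Plekhh1 and -1.23 and 0.66 for Fbxo15, which was well above background on 1 KCl array and whose difference between the stimuli turned to 0.19 with normexp. They were -0.77 and 0.52 for Efcab5, -0.51 and 0.68 for Micall2 and -0.50 and 0.50 for the inositol transporter Slc2a13.

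Of the 273 genes lower under KCl and higher under bicuculline, 229 had a listed promoter, and 13 of these (5.68%, against 3.46% of all genes) held the full CREB site. Of the 358 reverse genes 270 had one, and 7 (2.59%) held the full site. The core site stood in 36.2% and 25.2%.

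**Figure D4:**
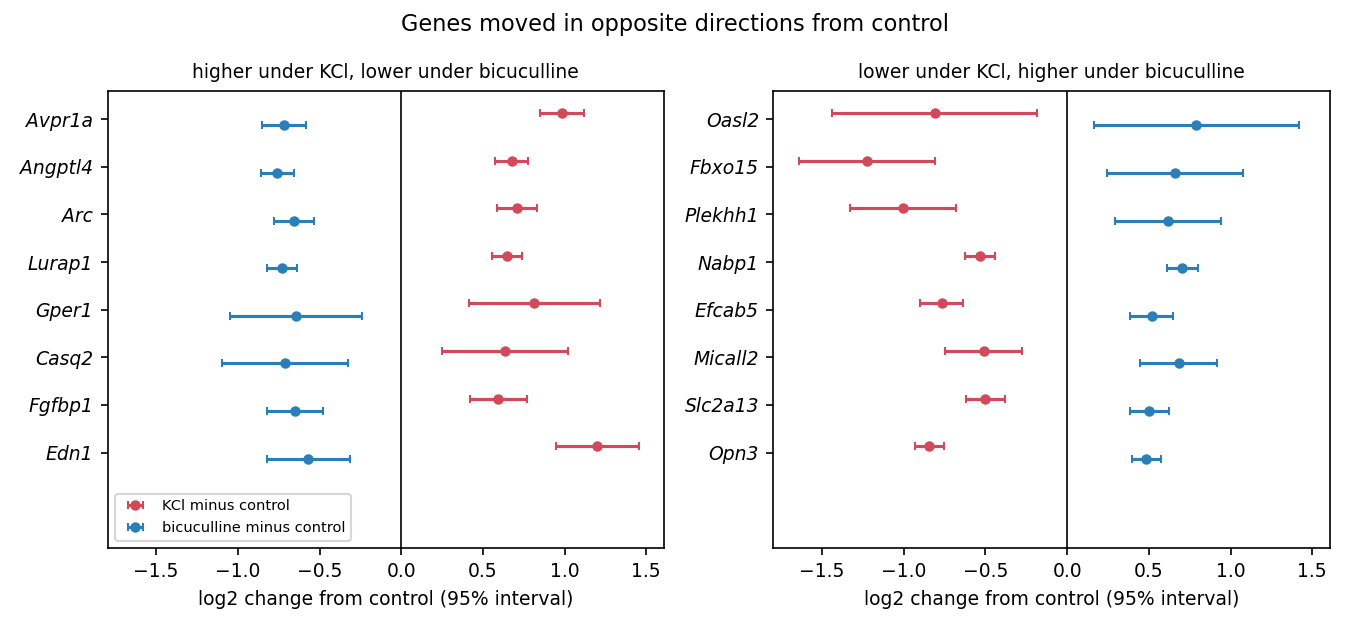
Log2 change from control (x axis) under KCl (red) and bicuculline (blue) with 95% intervals, 3 arrays a group, for the 8 genes in each direction with the largest smaller change. No interval crosses 0, and intervals are widest for Oasl2; with spike-in scaling Arc, Angptl4, Casq2, Fgfbp1 and Lurap1 lose the call.

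Ion channels and receptors differed by less. Of all 14062 genes 36.1% were higher and 28.8% lower, and with spike-in scaling 654 were higher and 6871 lower. Of 30 voltage-gated potassium channel genes, which set repolarisation, 16 were higher under KCl, 4 lower and 10 not called (median 0.19, -0.23 with spike-in scaling, 0 higher and 9 lower), led by Kcns2 (0.71), Kcnd3 (0.70) and Kcna1 (0.65). The slide block left 10 higher and 1 lower. Sodium and HCN channels had 2 higher, 1 lower and 8 not called of 11, with a median of 0.00 (-0.01 with quantile normalization, -0.12 with median scaling and -0.41 with spike-in scaling, 0 higher and 6 lower).

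Calcium channels, pumps and exchangers had 12 higher, 4 lower and 12 not called of 28 (median 0.13, -0.29 with spike-in scaling, 0 higher and 11 lower). The 4 lower became 2 with slide as a block and without bicuculline 2, bicuculline 3 or KCl 2. The channel beta subunit Cacnb1 was 0.70 higher. Cacna1d, the pore of an L-type channel, was -0.61 on the brightest probe, and its 2 further probes read -0.55 and 0.96 (0.0695 with normexp). Calcium-calmodulin signalling genes had 15 higher, 0 lower and 9 not called of 24 (median 0.19, -0.23 with spike-in scaling, 0 higher and 4 lower), with the calcium sensor Hpca at 0.46 ± 0.04 (adjusted p = 4.8e-05). With quantile normalization 7 of that list were higher and 2 lower, with slide as a block 8 and 1, and without bicuculline 3 9 were higher.

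Ionotropic glutamate receptors had 9 higher, 3 lower and 5 not called of 17 (median 0.19, -0.23 with spike-in scaling, 1 higher and 6 lower), among them the NMDA receptor subunit Grin2d (0.67) and the kainate receptor subunit Grik3 (1.49, adjusted p = 0.013), which was well above background on 1 bicuculline array and not called with slide as a block (1.18, adjusted p = 0.052). Metabotropic receptors had 1 higher, 2 lower and 2 not called of 5 (median -0.05, -0.46 with spike-in scaling, 0 higher and 3 lower), with Grm8 at -0.48. GABA genes had 8 higher, 2 lower and 14 not called of 24, with a median of 0.10 that turned to -0.02 with quantile normalization and median scaling and to -0.32 with spike-in scaling, 1 higher and 9 lower. Gabre, a GABA-A receptor subunit gene, was higher under KCl (0.78 ± 0.13, adjusted p = 0.0010).

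Synaptic vesicle genes had 21 higher, 3 lower and 10 not called of 34 (median 0.18, -0.24 with spike-in scaling, 1 higher and 3 lower), and 1 was lower without bicuculline 3 or KCl 2. The vesicle GTPase Rab3c was 0.95 ± 0.03 higher (adjusted p = 7.1e-07) and the calcium sensor Syt9 was -0.55 lower. Postsynaptic scaffold and adhesion genes had 15 higher, 4 lower and 8 not called of 27 (median 0.16, -0.26 with spike-in scaling, 1 higher and 9 lower), led by the adhesion protein gene Lrrtm2 (0.84). With slide as a block 9 of them were higher. Axon guidance genes had 17 higher, 8 lower and 14 not called of 39 (median 0.17, -0.24 with spike-in scaling, 0 higher and 15 lower), with the netrin receptor gene Unc5d at 0.68 and the ephrin gene Efna2 at -0.79 (0.42 with normexp).

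**Figure D5:**
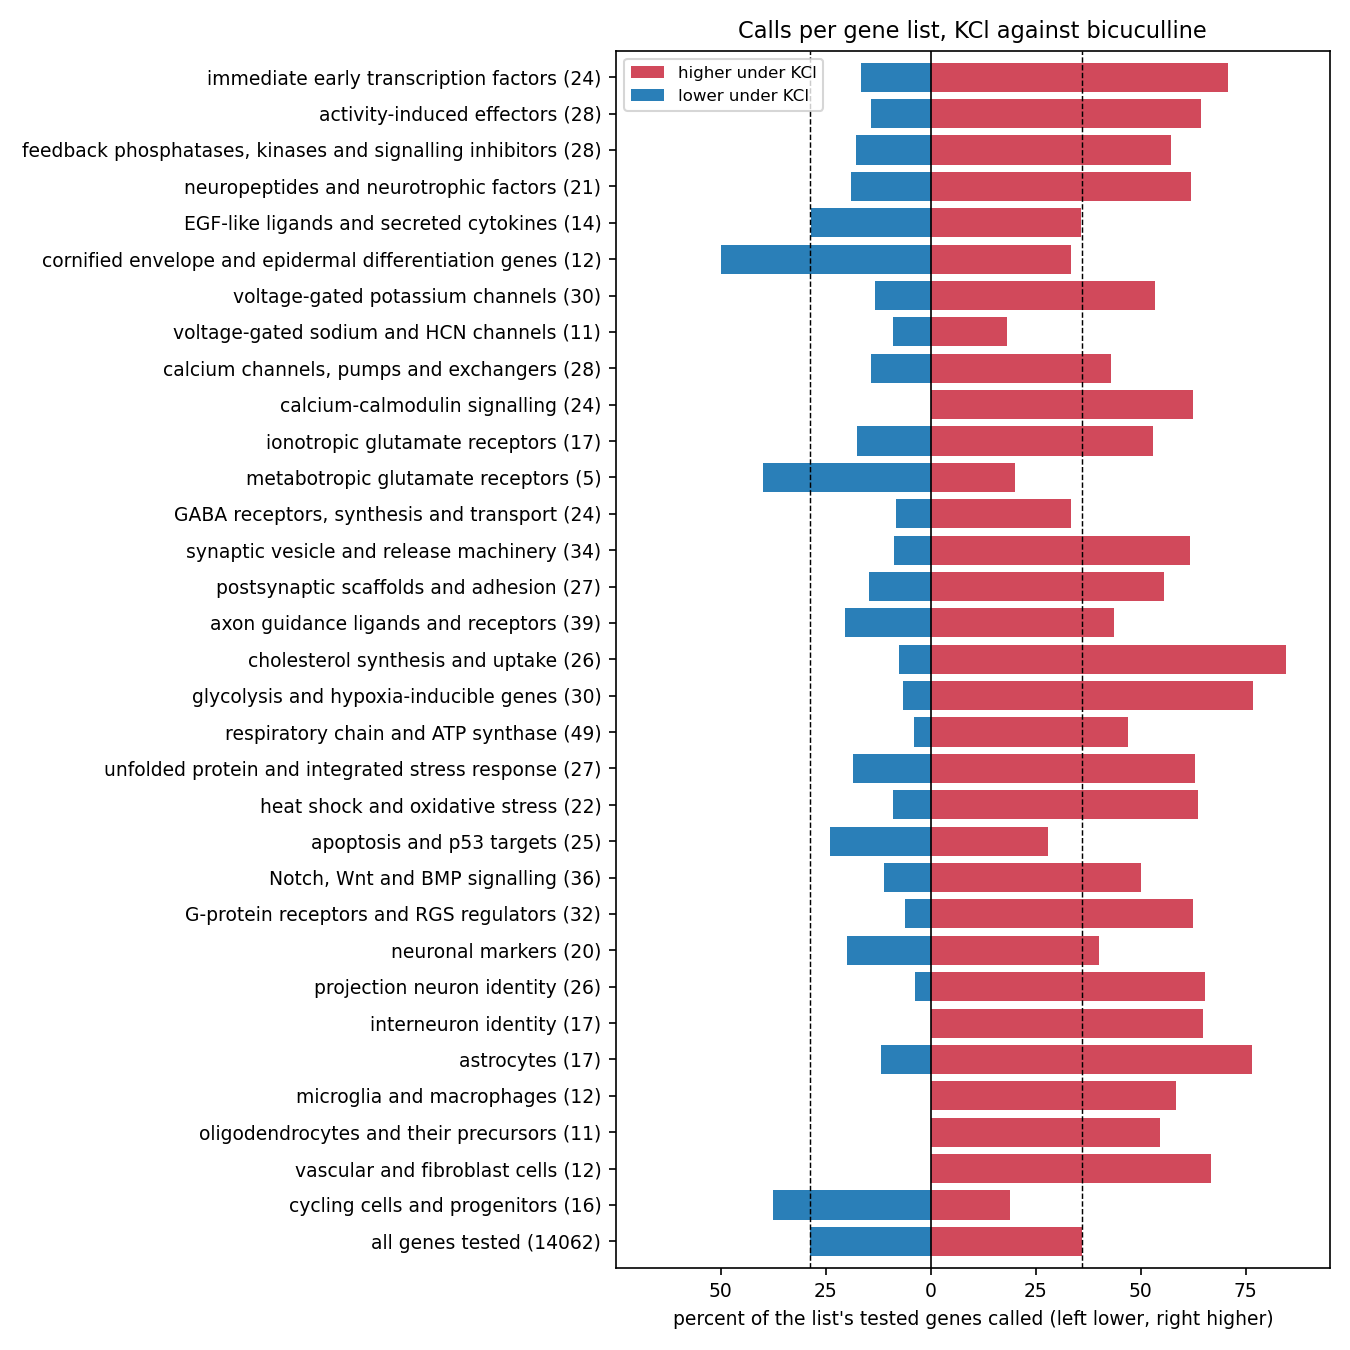
Percent of the tested genes of each list called lower (left, blue) and higher (right, red) under KCl than under bicuculline, with the number tested in brackets and dashed lines at the 28.8% and 36.1% of all genes. The lists of cholesterol synthesis, glycolysis, astrocyte and immediate early genes reach furthest right. With spike-in scaling the medians of all lists but 3 (immediate early, microglia, oligodendrocyte) are below 0, as is that of all genes at -0.34.

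Metabolic genes were more often higher than lower under KCl at the reported scaling. Cholesterol synthesis and uptake genes had 22 higher, 2 lower and 2 not called of 26, with a median of 0.37 (0.29 with quantile normalization, -0.04 with spike-in scaling, 3 higher and 4 lower). Against control their median was 0.56 under KCl and 0.04 under bicuculline. Idi1, an isomerase of the isoprenoid pathway, was 0.87 ± 0.06 higher (adjusted p = 1.2e-05) and the sterol desaturase gene Sc5d 0.80.

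Glycolysis and hypoxia-inducible genes had 23 higher, 2 lower and 5 not called of 30 (median 0.27, -0.14 with spike-in scaling, 2 higher and 5 lower), led by adrenomedullin, Adm (1.06 ± 0.08, adjusted p = 1.3e-05) and the oxygen sensor Egln3 (0.88). Respiratory chain and ATP synthase genes had 23 higher, 2 lower and 24 not called of 49 with a median of 0.15. With quantile normalization 1 was higher and 8 lower (median -0.04), and with spike-in scaling 0 and 10 (median -0.26). The 23 higher became 8 with slide as a block, 13 without bicuculline 2 or bicuculline 3 and 14 without KCl 3.

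Unfolded protein and integrated stress response genes had 17 higher, 5 lower and 5 not called of 27 (median 0.22, -0.20 with spike-in scaling, 1 higher and 9 lower), and 3 were lower with slide as a block and without bicuculline 3 or KCl 1. Ppp1r15a, a phosphatase subunit that restarts translation, was 0.58 ± 0.06 higher (adjusted p = 0.00010) and the chaperone gene Dnajb9 0.53. Heat shock and oxidative stress genes had 14 higher, 2 lower and 6 not called of 22 (median 0.22, -0.20 with spike-in scaling, 2 higher and 7 lower), with the small heat shock genes Hspb8 (0.92) and Hspb1 (0.75) and the chaperone gene Hspa4l (0.79). With slide as a block 7 of these were higher. Apoptosis genes had 7 higher, 6 lower and 12 not called of 25, with a median of 0.05 (-0.07 with median scaling and -0.37 with spike-in scaling, 1 higher and 13 lower). Bbc3, a killer protein driven by p53, was lower under KCl (-0.83 ± 0.04, adjusted p = 1.7e-06), and the death receptor gene Fas was higher (0.81 ± 0.08, adjusted p = 7.4e-05).

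Notch, Wnt and BMP signalling genes had 18 higher, 4 lower and 14 not called of 36 (median 0.17, -0.24 with spike-in scaling, 2 higher and 9 lower). The Notch target Hes5 was lowest, while the Notch ligand gene Jag1 (0.82 ± 0.06, adjusted p = 1.7e-05), the Wnt ligand gene Wnt5a (0.78) and the BMP inhibitor gene Smad6 (0.78) were higher. Jag1 changed from control by 0.53 under KCl and -0.29 under bicuculline, and Wnt5a by 0.35 and -0.42. G-protein receptors and RGS regulators had 20 higher, 2 lower and 10 not called of 32 (median 0.38, -0.04 with spike-in scaling, 2 higher and 5 lower). Gpr6, an orphan receptor, fell below control under both stimuli, by 2.26 under KCl and by 3.71 under bicuculline, so that it was 1.45 ± 0.16 higher under KCl (adjusted p = 0.00012); it was well above background on 1 bicuculline array. The muscarinic receptor gene Chrm3 was 0.79 higher and Rgs17 was -0.68 lower.

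Projection neuron identity genes had 17 higher, 1 lower and 8 not called of 26 (median 0.22, -0.20 with spike-in scaling, 2 higher and 5 lower). Fezf2, which specifies subcerebral neurons, was 1.17 ± 0.05 higher (adjusted p = 1.6e-06), Neurod2 0.76 and Sox5 1.15, although the call of Sox5 was lost with slide as a block (0.73, adjusted p = 0.055). Interneuron identity genes had 11 higher, 0 lower and 6 not called of 17 (median 0.32, -0.09 with spike-in scaling, 2 higher and 5 lower), with Prox1 at 1.55 ± 0.12 (adjusted p = 1.9e-05). In bulk RNA, fewer cells of a type and less RNA per cell cannot be told apart.

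The labelled cell type was checked against its markers. All 20 neuronal markers tested were well above background on all 9 arrays, and they split with 8 higher, 4 lower and 8 not called (median 0.10, but -0.02 with quantile normalization, -0.03 with median scaling and -0.32 with spike-in scaling, 0 higher and 8 lower). Their summed level, in units of the 75th percentile, was 370 to 392 under bicuculline and 399 to 446 under KCl. Nefh (-0.60), Dcx (-0.40) and Tubb3 (-0.36) were among the 4 lower under KCl, and other probes of Dcx gave -0.51 and 0.46. None of the 8 higher markers is named beside them, so these genes do not stand for the list.

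Markers of other cells were also measured, and their counts depended on the scaling. Of all 14062 genes 36.1% were higher and 28.8% lower, and with spike-in scaling 654 were higher and 6871 lower. Astrocyte markers had 13 higher, 2 lower and 2 not called of 17 (median 0.20, -0.21 with spike-in scaling, 0 higher and 3 lower), with summed levels of 236 to 237 under bicuculline and 270 to 281 under KCl and Gfap at 0.73. The astrocyte counts were 7 and 2 with quantile normalization (median 0.02), 5 and 2 with median scaling, 1 and 1 with normexp and 7 and 1 with slide as a block. Microglial markers had 7 higher, 0 lower and 5 not called of 12 (median 0.54, 0.13 with spike-in scaling, 1 higher and 1 lower), with overlapping summed levels of 5.26 to 7.82 and 7.66 to 11.6 and Cd14 at 0.98. With slide as a block, 2 of the 12 were higher. The microglial genes Cd68, Itgam, Tmem119 and P2ry12 were not among the genes tested.

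Oligodendrocyte markers had 6 higher, 0 lower and 5 not called of 11 (median 0.43, 0.01 with spike-in scaling, 0 higher and 2 lower), with summed levels of 31.5 to 32.7 and 37.5 to 38.1. Mbp, a myelin protein gene, was 0.73 by its brightest probe and -0.15 and 0.10 by others. Vascular and fibroblast markers had 8 higher, 0 lower and 4 not called of 12 (median 0.28, -0.14 with spike-in scaling, 2 higher and 3 lower), with sums of 26.1 to 28.5 and 45.5 to 50.1. Tagln, an actin-binding protein gene, took the largest difference among them, reading 3.46, 3.70 and 3.55 under bicuculline and 4.97, 4.77 and 4.91 under KCl. The sums are of linear signal, so this bright gene makes up most of the rise in the vascular sum. The endothelial genes Pecam1, Cldn5, Tek and Cdh5 were not among the genes tested. Cycling and progenitor markers had 3 higher, 6 lower and 7 not called of 16 (median -0.05, -0.46 with spike-in scaling, 0 higher and 12 lower). Hmgb2 (-0.93) and Mcm2 (-0.86) were among the 6 lower. The summed level of this list went the other way from its median, at 86.8 to 96.7 under bicuculline and 103 to 115 under KCl. The part of these other cells in the differences above was not tested.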

How the data were processed

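Members, gene lists and the rule for named genes were chosen with earlier results of these data known. The deposited values are processed signal intensity, made by the authors with Agilent Feature Extraction (10.7.3.1 in the file headers, 10.5.1.1 in the submitters' processing notes). Background was subtracted and spatial trends removed within each array, per the file headers, with no step between arrays. The deposited raw spot and background intensity served for normexp (offset 50).

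For each array, log2 of the processed signal was taken relative to the 75th percentile over 43379 non-control spots. Outlier spots were left out (39 values) and spots of a probe averaged. Of 41174 probes, 26888 matched a symbol in a RefSeq table of GRCm38.p6, giving 18327 genes. Probes had to be well above background in 1 whole group and measured on at least 2 arrays of each, which left 20991, and the brightest stood for each of 14062 genes. Where a group had 0 arrays well above background, the fold is a bound: the bright group's mean against the dim probe's value, or the lowest signal well above background on that array if higher.

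All 9 arrays entered 1 fit in limma 3.58.1 (R 4.3.3), with group as the only term, Benjamini-Hochberg adjustment over all genes within a comparison and a two-sided threshold of 0.05. It had 6 residual degrees of freedom; errors are its standard errors, intervals are 95%, and n is 3 arrays a group, which limits the precision. Same-numbered control and bicuculline arrays deviated together (correlations of 0.401, 0.259 and 0.742), and each such pair shares a slide. The procedure was tested on simulated data. Named genes are the 12 with the largest difference in each direction with arrays apart and at least 2 arrays of both groups well above background, the 4 largest bounds, the 8 opposite movers in each direction with the largest smaller change, a panel of activity genes, and from each list up to 3 called members with the largest difference or moved in opposite directions; other list members named for contrast were chosen after their values were seen. Some genes that this rule names are not reported here. The 32 lists hold 819 genes. Alternatives covered scaling, background, filters, probes, the prior, the samples fitted, slide, replicate number and each array left out.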

Additional observations from a re-analysis of the deposited data

Results flagged for a closer look

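A signal outside the genes named above was seen in probes that carry no gene symbol here. Of 6789 such probes kept in a fit of all probes, 2211 were higher and 1599 were lower under KCl than under bicuculline, and 307 and 164 were at least 2-fold higher and lower in limma at an adjusted p under 0.05, which makes 471 probes. These shares, 32.6% higher and 23.6% lower, lay below the 36.1% and 28.8% of named genes, and those at 2-fold, 4.52% and 2.42%, above their 2.23% and 1.24%. The shares are not of like units, since every kept probe without a symbol counts but only the brightest probe of each named gene. Probe A_52_P428784 averaged -1.18 under KCl, -4.78 under bicuculline and -7.16 in control, a log2 difference of 3.60 ± 0.07 (SE, n = 3 arrays a group). Probe A_52_P499773 averaged -2.28 and -5.56 under the stimuli in this order. Among those lower under KCl, probe A_52_P1147900 averaged -4.78 under KCl and -2.70 under bicuculline, and probe A_51_P247385 averaged -4.50 and -2.56. No group has enough arrays for a test of single outlying arrays.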

How the results depend on the processing

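Of the 139 named genes called between KCl and bicuculline, 22 turned sign in at least 1 alternative. With normexp and the 75th percentile the sign turned, with no call, for 1700001J03Rik (0.32), Cacna1d (0.0695), Cgas (0.21), Cpb1 (0.65), Efna2 (0.42), Fbxo15 (0.19), Ifit1 (0.56), Lce1h (0.51), Rpp40 (0.57), Sox13 (0.60), Sprr2h (0.64), Tha1 (0.29), Tslp (0.34), Zfp174 (0.0648) and Zfp786 (0.041). With spike-in scaling it turned for Acta2 (-0.15), Bdnf (-0.13), Cartpt (-0.098), Egr2 (-0.20) and Gad1 (-0.30), and Gad1 also turned with quantile normalization (-0.0641) and median scaling (-0.0051). With the mean of all probes, Fosl2 (0.55) and Homer1 (0.10) turned. Of the named genes not called, Nptx2 (-0.0053 and -0.30) and Myc (-0.0329 and -0.33) turned with median and spike-in scaling and Klf6 (0.0894) with the mean of all probes, with no call. The causes were not tested.

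The genes higher under KCl numbered 2501 with median scaling, 654 with spike-in scaling and 1099 with normexp, and those lower 6871 with spike-in scaling and 1340 with normexp. Genes moved in opposite directions from control numbered 259, 43 and 13 in these 3 settings and 388 with normexp and quantile normalization. The genes changed at least 2-fold between KCl and bicuculline, 488 as reported, numbered 1050 with spike-in scaling, 253 with normexp, 128 with normexp and quantile normalization, 762 without the detection filter, where 18327 genes were tested, and 2032 at 1.5-fold. Leaving out each array in turn gave 4464 to 5034 genes higher, 3753 to 4001 lower, 410 to 622 in opposite directions (410 without control 3) and 441 to 672 at 2-fold (672 without bicuculline 3).

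With a replicate block, 4974 genes were higher, 3998 lower and 577 moved in opposite directions, and none of the 143 named genes changed its call between KCl and bicuculline. Same-numbered KCl and bicuculline arrays did not deviate together (correlations of -0.088, -0.193 and -0.567), nor did every array correlate best with its own number, so the numbers were not taken as pairs.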

Other observations

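The genes with the largest differences drew attention to 4 groups that had no list of their own, so these lists were chosen after the values were seen and are given as counts only. Of all genes, 36.1% were higher and 28.8% lower under KCl, and 2.23% and 1.24% were at least 2-fold higher and lower. Of 19 smooth muscle and contractile genes tested, 16 were higher under KCl than under bicuculline, 0 were lower and 7 were at least 2-fold higher, with a median log2 difference of 0.58 (0.57 with quantile normalization and 0.16 with spike-in scaling). The calponin genes Cnn1 (1.81) and Cnn2 (1.69), whose products bind actin, Nexn (1.66), Lmod1 (1.62), Tagln (1.31), Tpm2 (1.05) and Actc1 (1.03) were the 7. Against control the median was 0.80 under KCl and 0.01 under bicuculline. Tagln and Acta2 are also on the vascular list, and the part of mural or fibroblast cells in this group was not tested.

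Of 25 interferon-stimulated genes, 15 were lower under KCl, 1 was higher and 6 were at least 2-fold lower, with a median of -0.46 (-0.56 with quantile normalization and -0.88 with spike-in scaling). Ifit1 (-1.80, well above background on 1 KCl array), Oasl2 (-1.60), Cxcl10 (-1.59) and Cgas, the cytosolic DNA sensor (-1.24), were among them, but with normexp the sign turned for Ifit1 (0.56) and Cgas (0.21). Ifi202b, an interferon-activated gene that the list does not hold, was higher under KCl (2.26). The list's median against control was -0.30 under KCl and 0.25 under bicuculline.

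Of 314 genes whose symbol starts with Zfp and a number, most of them zinc finger transcription factors, 212 were lower under KCl and 41 were higher, with 17 and 1 at least 2-fold and a median of -0.33 (-0.38 with quantile normalization and -0.75 with spike-in scaling). Zfp759 (-1.49), Zfp786 (-1.40) and Zfp174 (-1.35) were among those lower, but with normexp Zfp786 (0.041) and Zfp174 (0.0648) turned sign. Against control the median was -0.33 under KCl and 0.02 under bicuculline. Of 35 genes of RNA polymerase III, RNase P and transfer RNA modification, 22 were lower and 6 higher, with a median of -0.31 (-0.32 with quantile normalization and -0.73 with spike-in scaling). Rpp40, an RNase P subunit, differed by -1.43 (0.57 with normexp), and Adat2, a transfer RNA deaminase subunit, was the highest at 0.75.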
